A study of Mus musculus with 18 samples.

Results

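Neuronal cytoskeleton and growth cone genes, which encode the filaments, tubulins, microtubule-associated proteins and growth cone proteins of young neurons, were examined in the dorsal telencephalon of mouse embryos that carry or lack the transcription factor gene Insm1. The 37 genes were chosen by name and function, without kinesins, with earlier results of these data known. The list also holds the kinase Nuak1. Of the 37 genes, 31 were measured, each by 1 probe set that carries no other gene symbol. Tuba1a and Tubb3 lay only on probe sets with several symbols and were not analysed here. For Map1a, Stmn1, Camsap2 and Marcks the probe table used here lists no symbol, and they were not analysed here either. The 31 probe sets are part of 16661 tested. The samples were 8 wildtype embryos, 6 embryos heterozygous for an Insm1 knock out (1 mutant allele) and 4 homozygous embryos (2 mutant alleles), all at E13.5 (embryonic day), with 1 Affymetrix whole-transcript array per embryo. The labels name no driver line, transgene or treatment and describe the mutant allele no further. The stated purpose was to find target genes of Insm1. Values are deposited log2 signals, so a difference of 1 is a 2-fold difference, and signals of different probe sets are not compared with each other.

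A young cortical neuron extends its axon and moves into the cortical plate by building and remodelling microtubules, neurofilaments and actin. Tubulin dimers form the microtubules, structural microtubule-associated proteins and doublecortins stabilise them, stathmins bind free tubulin and favour disassembly, and collapsin response mediators link guidance cues such as semaphorins to tubulin. Neurofilament proteins fill the axon, and Gap43 and Basp1 sit at the inner face of the growth cone membrane, where actin-binding proteins work. Insm1 is a zinc finger factor of progenitors and newborn neurons in the developing nervous system.

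Insm1 itself had a mean of 5.34 ± 0.34 in the 8 wildtype arrays, 4.77 ± 0.39 in the 6 heterozygous arrays and 3.31 ± 0.34 (SD) in the 4 homozygous arrays, where 24.5% of the wildtype signal was left on the linear scale (limma adjusted p = 3.81e-05). The labels give no position of the deletion, so it is unknown whether the Insm1 probes fall inside it. For the labelled tissue, the cortical markers Pax6, Emx2, Lhx2 and Tbr1 had genotype means between 6.14 and 9.37. The ventral markers Dlx2 and Gad1 had genotype means between 1.55 and 2.42. Since probe sets share no scale, these levels are given as a description and do not measure how much of each tissue was present. The upper quartile of signal was 4.67 to 4.87 across wildtype arrays, 4.67 to 4.75 across homozygous arrays and lowest, 4.50, in heterozygous replicate 6. Correlations between arrays ran from 0.985 to 0.996. The level of Eif2s3y, a Y-linked gene, was high in 5 wildtype and 3 heterozygous arrays and, among homozygous arrays, in replicate 4 alone. Heterozygous replicate 6 and homozygous replicate 2 stood apart in a list of hypoxia response genes, with list means of 4.98 and 5.03 against 3.31 to 3.74 in the other arrays. Litters are not named in the labels, so p-values cover only the spread among the embryos at hand. Fewer neurons in the tissue and less RNA of a gene per neuron cannot be told apart in these whole-tissue samples.

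Ina, Map2 and Nuak1 were the measured members that passed the test between homozygous and wildtype embryos. Whether Insm1 acts on these genes directly was not tested. The 250 bases before their annotated starts are shown as a description, since Insm1 is a DNA-binding factor. They are RefSeq windows of build GRCm38.p6 on the gene's strand, at chr19:47014431-47014680 (plus strand) for Ina, chr1:66175079-66175328 (plus strand) for Map2 and chr10:84440669-84440918 (minus strand) for Nuak1. Capitals mark GGGGNC, the core of the published Insm1 consensus with any base allowed at N, or GNCCCC, the same letters on the other strand.
Ina: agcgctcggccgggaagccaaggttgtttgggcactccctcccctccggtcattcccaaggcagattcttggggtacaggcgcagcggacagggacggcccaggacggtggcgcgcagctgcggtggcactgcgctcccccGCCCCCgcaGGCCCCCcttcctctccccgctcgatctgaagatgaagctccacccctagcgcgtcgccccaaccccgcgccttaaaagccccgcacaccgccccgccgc
Map2: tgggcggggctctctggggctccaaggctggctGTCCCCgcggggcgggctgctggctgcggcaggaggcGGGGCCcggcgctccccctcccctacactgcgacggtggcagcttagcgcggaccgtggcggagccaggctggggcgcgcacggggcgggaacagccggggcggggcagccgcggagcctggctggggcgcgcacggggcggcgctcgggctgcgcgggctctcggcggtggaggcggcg
Nuak1: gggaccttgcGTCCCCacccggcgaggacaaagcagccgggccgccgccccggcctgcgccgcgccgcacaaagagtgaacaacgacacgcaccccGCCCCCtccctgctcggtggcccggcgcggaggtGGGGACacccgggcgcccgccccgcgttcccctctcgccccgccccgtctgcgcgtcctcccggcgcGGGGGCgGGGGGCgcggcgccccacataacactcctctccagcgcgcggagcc
The Ina window held 3 matches, 2 of which overlap, at 109, 100 and 99 bases before the start, the Map2 window held 2 at 217 and 180 bases, and the Nuak1 window held 5 between 240 and 46 bases. Such matches are common: 50.2% of the 32851 windows in the table held at least 1 on either strand. Windows were found for 18 of the 31 measured members, 23 windows in all, and 16 of the 23 (69.6%) held a match. These windows were also richer in G and C, with a median of 62.8% against 52.4% over all windows, and the part of base composition in the share of matches was not tested. The whole Insm1 consensus was in 0 of the 23 windows and in 0.4% of all. The E-box CANNTG, searched on both strands (it reads the same on each), was in 13 of the 23 windows (56.5%) against 66.2% of all, and the Ina window held it as CAGCTG at 135 bases before the start. A match is a description of the letters and not evidence of binding.

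In homozygous against wildtype embryos, 26 of the 31 genes had a lower mean and 5 a higher mean. Across all probe sets tested 59.1% had a lower mean. The median log2 difference over the 31 genes was -0.17, beside -0.03 over all probe sets. At an adjusted p under 0.05 (limma, Benjamini-Hochberg over all 16661 probe sets), 3 genes fell, Ina, Nuak1 and Map2, and 0 rose. Of all probe sets tested, 0.504% were called lower and 0.564% were called in either direction, 84 lower and 10 higher. That balance depended on scaling, being 74 lower and 84 higher after a further quantile normalization and 67 lower and 75 higher after median centring of the arrays. Lower means numbered 23 and 22 of the 31 genes under those scalings, where the median difference over all probe sets was -0.003 and 0.04. Calls among the genes numbered 2 under each, Ina and Nuak1, both lower, beside 158 and 142 probe sets called in the whole table. At an unadjusted p under 0.05, 18 genes were lower and 0 higher, against 12.1% of all probe sets that were lower. The adjusted p was under 0.1 with a lower mean for 11 genes, against 2.02% of all. In 8 genes, Ina, Nefm, Map2, Map4, Map6, Dcx, Crmp1 and Nuak1, every homozygous array lay below every wildtype array, which held for 2.21% of all probe sets. The list was chosen with earlier results of these data known, so these shares are a description and not a test of the list.

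Probe sets with a high signal leaned to lower values in the whole table. Among the 3685 probe sets with a mean signal of 5 or more, a limit chosen after seeing the data, 72.3% had a lower mean, 4.67% had every homozygous below every wildtype array and 0.896% were called lower. Of the 21 cytoskeleton and growth cone genes in that range, 18 had a lower mean, 6 had no overlap and 3 were called. Their median difference was -0.24, beside -0.09 over the probe sets of that brightness.

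**Figure D1:**
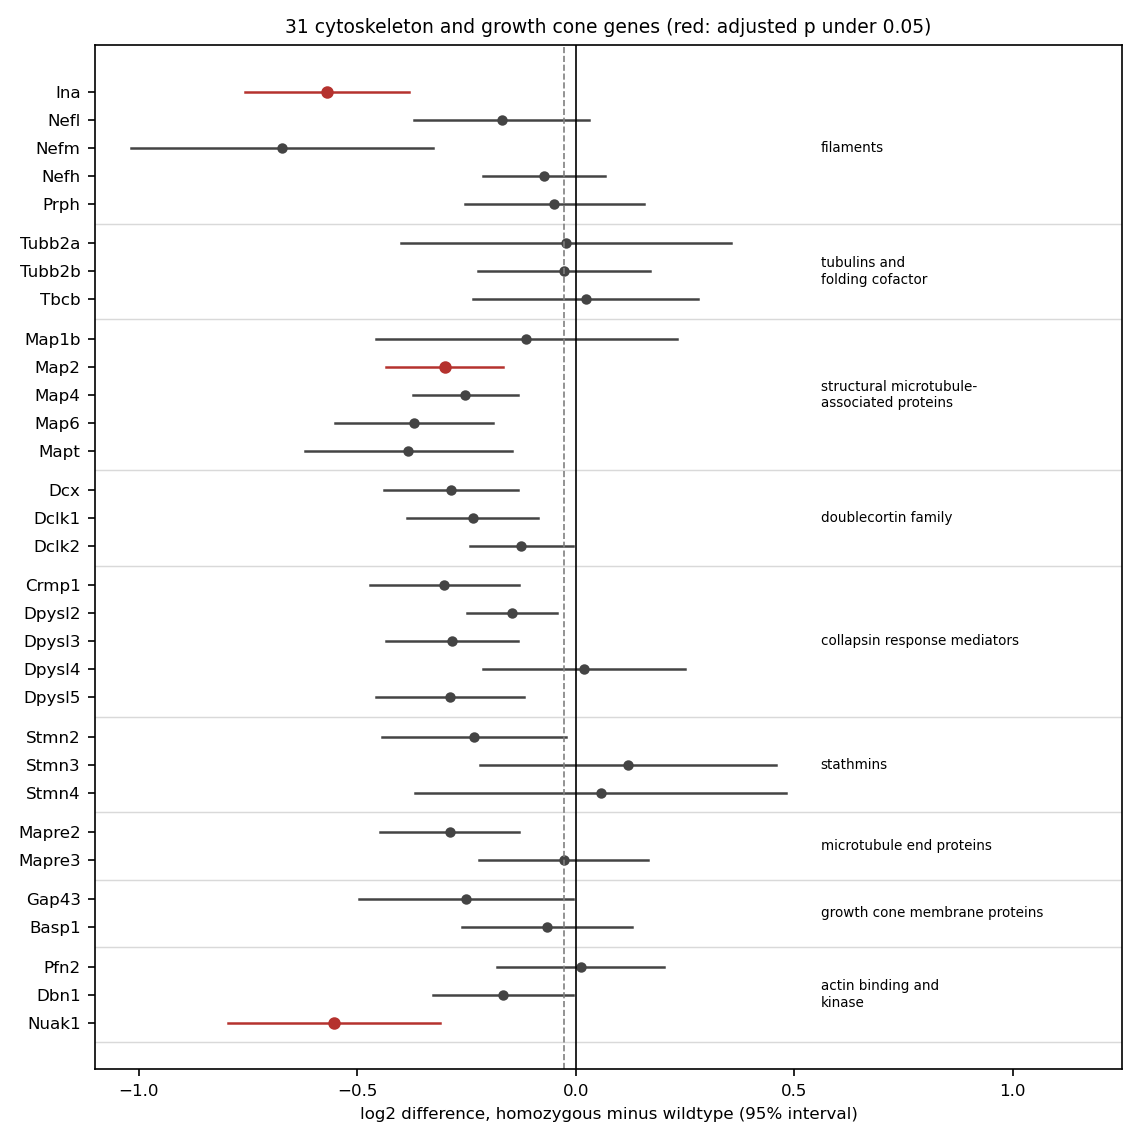
Log2 difference between homozygous (n = 4) and wildtype (n = 8) embryos for the 31 measured genes, ordered by role; points are the fitted differences, bars their 95% intervals, red marks an adjusted p under 0.05, the solid line is 0 and the dashed line the median of all probe sets, -0.03. Ina (-0.57), Nuak1 (-0.55) and Map2 (-0.30) are red, and most of the points lie left of 0, while the tubulins, Stmn3 and Stmn4 lie near or right of it.

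**Figure D2:**
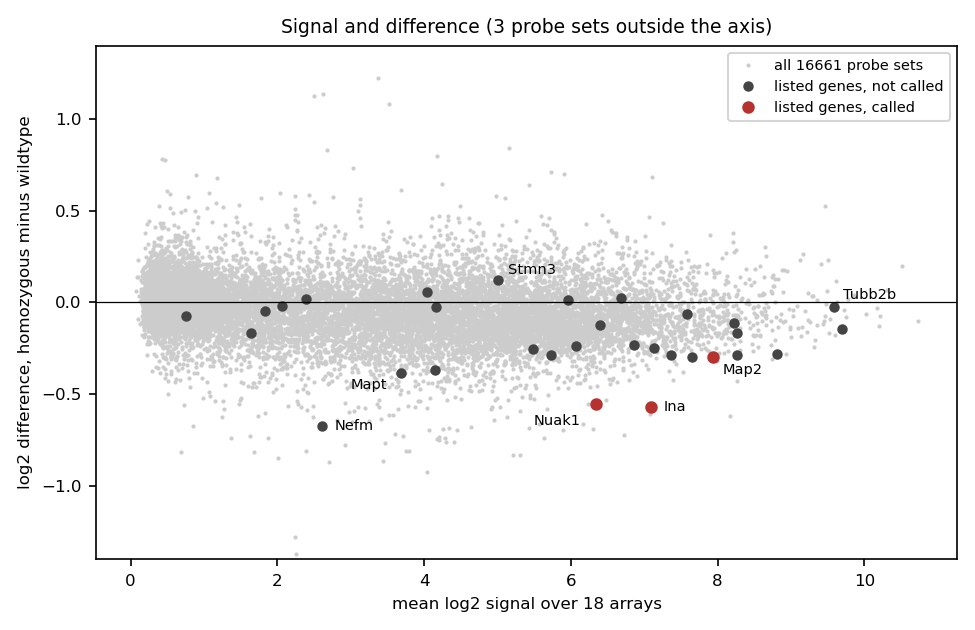
Mean log2 signal over 18 arrays (x axis) against the log2 difference, homozygous minus wildtype (y axis), for all 16661 probe sets in grey, the 28 uncalled genes of the list in black and the 3 called ones in red; 3 probe sets, Insm1 among them, lie outside the axis. The cloud of bright probe sets lies slightly below 0, at a median of -0.09 from a signal of 5 upward, and Ina, Nuak1 and Map2 lie toward its lower edge or below it.

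Among the filament genes, Ina fell and the 4 others had lower means that did not pass. Ina encodes alpha-internexin, a neurofilament protein made early by differentiating neurons. Its log2 signal was 6.82, 6.61, 6.60 and 6.82 in the 4 homozygous embryos. In wildtype embryos it ran from 7.06 through a median of 7.30 to 7.53, and in heterozygous embryos from 6.91 through 7.06 to 7.36. All homozygous values lay below every wildtype and every heterozygous value. The difference from wildtype was -0.57 (SE 0.09, 95% interval -0.76 to -0.38, limma adjusted p = 0.0043), which leaves 67.4% of the wildtype signal. Ina was called in all 33 alternative settings run, with differences between -0.69 and -0.50 and adjusted p between 0.0027 and 0.0311.

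The classical neurofilament subunits also had lower means. Nefm, the medium subunit, was 2.09, 2.10, 2.11 and 2.35 in the homozygous embryos, against 2.58 to 3.08 in wildtype, with a difference of -0.67 (SE 0.16, limma adjusted p = 0.0612). Its homozygous values lay below all wildtype values, but heterozygous replicates 3 and 6, at 2.25 and 1.92, lay in or under the homozygous range. Without heterozygous replicate 6 Nefm was called at the same difference, since that array enters only the spread shared by the genotypes. Nefl, the light subunit, had means of 1.71 ± 0.16 in wildtype (SD, n = 8) and 1.54 ± 0.17 in homozygous embryos (SD, n = 4), a difference of -0.17. Nefh, the heavy subunit, was at 0.73 ± 0.09 and 0.65 ± 0.06, and is the one measured member that a filter on dim probe sets removed. Prph, or peripherin, a filament protein of peripheral neurons, differed by -0.05 from a wildtype mean of 1.85, and its mean difference turned to 0.01 under both quantile normalization and median centring. Markers of peripheral and cranial sensory neurons had low signals: 6 of 6 measured had a mean under 2, and 3 of them lay among the dimmest probe sets. Their list mean was 0.83 to 1.07 in wildtype and 0.92 to 1.13 in homozygous arrays. These levels do not measure how many such cells were present.

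The tubulins and Tbcb showed no difference that passed. Tubb2b, a beta tubulin of young neurons, was 9.45, 9.58, 9.83 and 9.55 in homozygous embryos. In wildtype embryos it ran from 9.34 through 9.66 to 9.77, and in heterozygous embryos from 9.19 through 9.55 to 9.69. The 3 genotypes overlapped, with the highest value of all in homozygous replicate 3. The difference was -0.03 (SE 0.09, 95% interval -0.22 to 0.17, limma adjusted p = 0.94), and it was 0.04 after median centring. Tubb2a, a closely related beta tubulin, differed by -0.02 with a wide interval of -0.40 to 0.36. It ranged from 1.30 in homozygous replicate 2 to 2.57 in homozygous replicate 3, and its mean difference was above 0 under quantile normalization and median centring (0.03 and 0.04). Tbcb, a cofactor that folds alpha tubulin, differed by 0.02 from a wildtype mean of 6.70. Tubulin genes resemble each other in sequence, and whether their probes tell them apart was not tested.

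Of the structural microtubule-associated proteins, all 5 measured had a lower mean and Map2 passed. Map2 encodes the protein that comes to mark dendrites and cell bodies. It was 7.81, 7.80, 7.76 and 7.58 in homozygous embryos. Wildtype embryos ran from 7.93 through 8.03 to 8.16 and heterozygous embryos from 7.78 through 7.95 to 8.03. Homozygous and wildtype embryos did not overlap, while heterozygous replicate 1 (7.78) lay inside the homozygous range and replicate 2 (7.82) just above it. The difference was -0.30 (SE 0.06, 95% interval -0.43 to -0.17, limma adjusted p = 0.0364), or 81.2% of the wildtype signal. The size of the fall kept between -0.33 and -0.24 in 33 alternatives, but the call ended in 17 of them, over which the adjusted p ran up to 0.125. Quantile normalization (-0.25, adjusted p = 0.076) and median centring of the arrays (-0.24, adjusted p = 0.125) each ended it, and so did leaving out any 1 of wildtype replicates 1, 2, 3, 4, 5 and 8, heterozygous replicate 5, or homozygous replicates 2, 3 and 4 (adjusted p from 0.0528 to 0.105).

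The other genes of this group missed the threshold. Map4, a microtubule-associated protein of many cell types, was 5.44, 5.21, 5.30 and 5.34 in homozygous embryos against 5.46 to 5.70 in wildtype, a difference of -0.25 (SE 0.06, limma adjusted p = 0.0501). Map6, which makes microtubules resistant to cold, was 4.05, 3.95, 3.71 and 3.86 against 4.09 to 4.41, a difference of -0.37 (SE 0.09, limma adjusted p = 0.0515). Neither gene showed overlap between homozygous and wildtype arrays, and both were called in 9 of the 33 alternatives. Mapt, the axonal protein tau, averaged 3.86 ± 0.23 over the 8 wildtype, 3.59 ± 0.12 over the 6 heterozygous and 3.47 ± 0.20 (SD) over the 4 homozygous embryos. Its wildtype replicate 7, at 3.35, lay inside the homozygous range of 3.24 to 3.72, and without that array Mapt was called. Map1b, a protein of growing axons, differed by -0.11 with an interval of -0.46 to 0.23. Homozygous replicate 4, at 7.68, was its lowest homozygous value, and without that array the mean difference was 0.05.

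**Figure D3:**
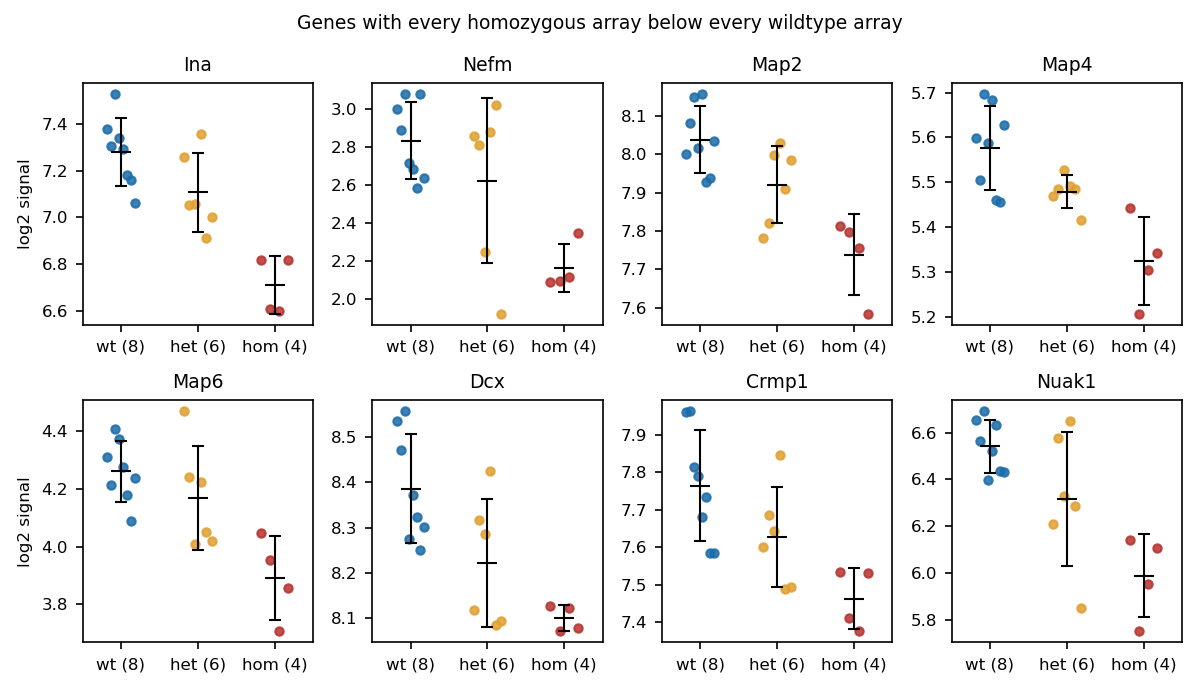
Log2 signal of the 8 genes in which every homozygous array lay below every wildtype array, by genotype (wt, n = 8; het, n = 6; hom, n = 4); points are embryos, the bar is the mean and the whiskers 1 SD, and each panel has its own axis that does not start at 0. Heterozygous embryos lie between the other genotypes on average and overlap the homozygous range in all panels but Ina.

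The doublecortin family encodes microtubule stabilisers of migrating neurons. Dcx, or doublecortin, was 8.13, 8.07, 8.12 and 8.08 in homozygous embryos, all below the wildtype range of 8.25 to 8.56, with a difference of -0.29 (SE 0.07, limma adjusted p = 0.0742). Heterozygous Dcx values spanned both groups, from 8.09 to 8.42. Dclk1 and Dclk2, which join a doublecortin part to a kinase, had differences of -0.24 and -0.12, and their homozygous ranges overlapped wildtype.

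Collapsin response mediators had lower means in 4 of 5 genes, and none passed. Dpysl2, which binds tubulin dimers in growing axons, was 9.56, 9.57, 9.68 and 9.60 in homozygous embryos. Its wildtype values ran from 9.63 through 9.76 to 9.84 and its heterozygous values from 9.63 through 9.65 to 9.73. Homozygous replicate 3 overlapped wildtype and the other homozygous arrays lay below it. The difference of Dpysl2 was -0.15 (SE 0.05, 95% interval -0.25 to -0.04, limma adjusted p = 0.154). Crmp1, a mediator of semaphorin signalling, was 7.53, 7.41, 7.38 and 7.53 in homozygous embryos against 7.58 to 7.96 in wildtype, a difference of -0.30 (SE 0.08, limma adjusted p = 0.086). Dpysl3 (-0.28, adjusted p = 0.071) and Dpysl5 (-0.29, adjusted p = 0.0972) were near it, and in each of them homozygous replicate 1 lay inside the wildtype range. Dpysl4, with a wildtype mean of 2.42, differed by 0.02 (95% interval -0.21 to 0.25).

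The stathmins did not move one way. Stmn2, a stathmin of axons and growth cones, was 6.48 to 6.82 in homozygous and 6.65 to 7.16 in wildtype embryos, a difference of -0.23. Stmn3 was 4.65, 5.38, 5.39 and 5.17 in homozygous embryos, while wildtype embryos ran from 4.75 through 5.07 to 5.35 and heterozygous embryos from 4.32 through 4.91 to 5.27. Homozygous replicates 2 and 3 lay just above and replicate 1 below the wildtype range, and the difference was 0.12 (SE 0.16, 95% interval -0.22 to 0.46, limma adjusted p = 0.796). Stmn4 was 3.96, 4.56, 4.08 and 3.57 in homozygous embryos, against 3.62 through 3.96 to 4.45 in wildtype and 3.75 through 3.94 to 4.93 in heterozygous embryos. Its highest values were in heterozygous replicate 6 and homozygous replicate 2, the arrays with the high hypoxia list. The difference of Stmn4 was 0.06 (SE 0.20, 95% interval -0.37 to 0.48, limma adjusted p = 0.943), and -0.12 without those arrays.

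Microtubule end proteins track growing plus ends. Mapre2 was 5.72, 5.41, 5.59 and 5.50 in homozygous embryos and 5.54 to 5.96 in wildtype, a difference of -0.29 (SE 0.08, limma adjusted p = 0.0777). Wildtype replicate 7 gave the value of 5.54, and the other wildtype arrays were at 5.82 or above. Without wildtype replicate 7, or without homozygous replicate 1, Mapre2 was called. Mapre3 differed by -0.03 (95% interval -0.22 to 0.16), and by 0.05 and 0.04 under quantile normalization and median centring.

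Of the growth cone membrane proteins, Gap43 was 6.89, 6.85, 7.13 and 6.89 in homozygous embryos, inside the wildtype range of 6.76 to 7.46, with a difference of -0.25 (SE 0.12, 95% interval -0.50 to -0.01, limma adjusted p = 0.313). Wildtype replicate 6 was the lowest of the 18 arrays for Gap43. Basp1 differed by -0.07 from a wildtype mean of 7.57. Of the actin-binding proteins, Pfn2, a profilin of neurons, differed by 0.01 and Dbn1, or drebrin, by -0.17 (SE 0.08), with homozygous values of 8.30, 8.04, 8.02 and 8.25 against 8.18 to 8.45 in wildtype.

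Nuak1 fell. It encodes an AMPK-related kinase that acts downstream of the kinase Lkb1 in axon branching of mouse cortical neurons. Its signal was 6.14, 5.75, 5.95 and 6.11 in homozygous embryos. Wildtype embryos ran from 6.40 through 6.54 to 6.69 and heterozygous embryos from 5.85 through 6.31 to 6.65. Homozygous and wildtype embryos did not overlap, and heterozygous replicate 6, at 5.85, lay inside the homozygous range. The difference was -0.55 (SE 0.12, 95% interval -0.79 to -0.31, limma adjusted p = 0.0328), or 68.1% of the wildtype signal. It ran from -0.65 to -0.42 in 33 alternatives, and the call ended in 13 of them. These included the 75th percentile of each array as a covariate (-0.45, adjusted p = 0.0551), Eif2s3y as a covariate (-0.54, adjusted p = 0.0502), and leaving out any 1 of wildtype replicates 1, 2, 3 and 5 or homozygous replicates 2, 3 and 4 (adjusted p 0.0534 to 0.16). With the 2 arrays of high hypoxia list left out, Nuak1 was still called, at -0.47. In the list of other kinases below, its relative Nuak2 differed by -0.03 (limma adjusted p = 0.937). Stk11, the gene of Lkb1, differed by -0.06 (limma adjusted p = 0.787). Of the 14 kinases measured there, 12 had a lower mean, beside 59.1% of all probe sets.

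Loss of 1 allele gave smaller differences, none of which passed. Against wildtype, heterozygous embryos had a lower mean in 27 of the 31 genes, with a median of -0.10 beside -0.02 over all probe sets. The smallest adjusted p among the genes was 0.658 (limma). In the data as a whole 0 probe sets were called (0%), where 1245 had an unadjusted p under 0.05 and the smallest adjusted p was 0.41. At an unadjusted p under 0.05, 6 genes were lower (Ina, Mapt, Dcx, Dclk1, Mapre2 and Nuak1), against 5.13% of all probe sets that were lower. At that p 1 gene was higher, Nefh, which lay among the dimmest probe sets. The heterozygous difference was -0.17 (SE 0.08) for Ina, -0.23 (SE 0.10) for Nuak1, -0.12 (SE 0.06) for Map2 and -0.26 (SE 0.10) for Mapt. This comparison and that of homozygous embryos share the wildtype arrays, so their values are not independent.

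Between homozygous and heterozygous embryos, 26 of the 31 genes had a lower mean in homozygous embryos and the median difference was -0.12, beside -0.02 over all probe sets. None of the genes was called, and 5 probe sets (0.03%) were called in the whole table, Insm1 among them. The smallest adjusted p among the genes, 0.178 (limma), was that of Ina, with a difference of -0.40 (SE 0.09). At an unadjusted p under 0.05, 8 genes were lower (Ina, Nefm, Nefh, Map2, Map4, Map6, Dpysl3 and Nuak1) and 0 higher, against 4.66% of all that were lower. Every homozygous array lay below every heterozygous array for Ina and Nefh, and this held for 0.822% of all probe sets. Nefh lay among the dimmest probe sets, where a difference is hard to measure. Its homozygous values reached 0.74 and its heterozygous values began at 0.77.

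No single array carried the lower values. Counted against the wildtype mean of each gene, 27, 25, 23 and 26 of the 31 genes were lower in homozygous replicates 1 to 4. Of all probe sets, 64.5%, 58.0%, 58.9% and 50.4% were lower than their wildtype mean in those arrays. The median over the genes was -0.14, -0.24, -0.24 and -0.21 in those arrays, beside -0.05, -0.03, -0.04 and -0.001 over all probe sets. Wildtype arrays were spread too, and the same median of the genes ran from -0.12 in wildtype replicate 7 to 0.12 in wildtype replicate 3. Over all probe sets it was -0.07 and 0.04 in those arrays. Wildtype replicates 6, 7 and 8 had 25, 25 and 27 genes under the wildtype mean, beside 67.9%, 70.9% and 51.5% of all probe sets. Heterozygous replicates 5 and 6 had 26 genes each under it, with medians of -0.18 and -0.16, and heterozygous replicate 4 had 10. The shares of all probe sets under it were 56.9%, 63.3% and 54.7% in heterozygous replicates 5, 6 and 4. The lowest of all 18 values was in homozygous replicate 2 for 7 genes and in homozygous replicate 3 for 7. Wildtype replicate 7 held the lowest wildtype value of 13 genes, and its 75th percentile (4.68) and that of wildtype replicate 6 (4.67) were the lowest of the wildtype arrays. Each array was left out in turn. Without wildtype replicate 7 the number of called genes was 8, and 188 probe sets were called in the whole table. The number was 9 without heterozygous replicate 6 (369 probe sets) or homozygous replicate 1 (394 probe sets), beside 3 and 94 with all arrays. It was 1 without wildtype replicate 1, 2, 3 or 5 or homozygous replicate 2, 3 or 4. The probe sets called were then 62 and 60 without wildtype replicates 1 and 3, and 36 and 37 without homozygous replicates 2 and 3. Leaving out a heterozygous array changes the spread shared by the genotypes, not the difference between homozygous and wildtype.

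**Figure D4:**
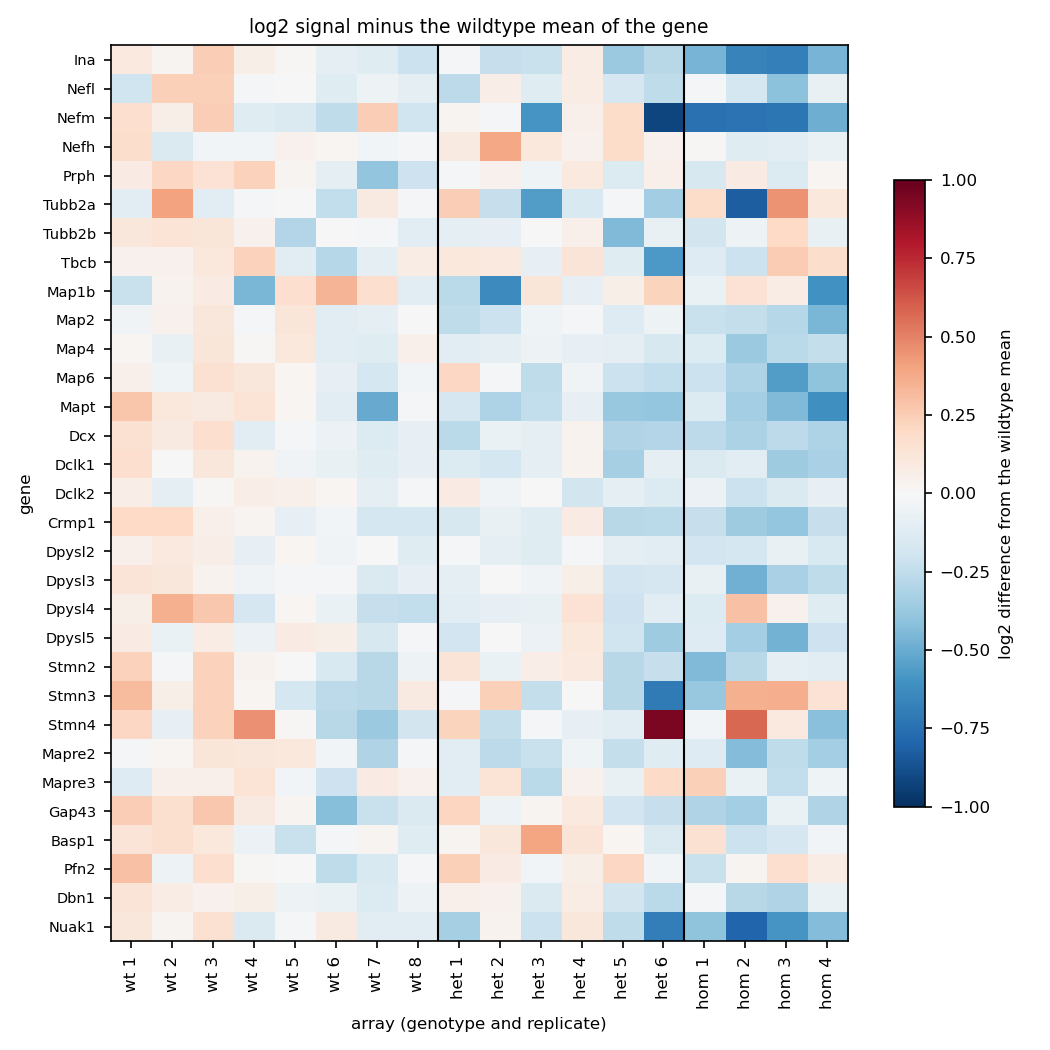
Log2 signal of each gene (rows) in each array (columns; wt, wildtype; het, heterozygous; hom, homozygous) minus the gene's wildtype mean, with blue below and red above it and the scale limited to -1 and 1. The 4 homozygous columns are blue for 23 to 27 of the 31 genes, heterozygous replicates 5 and 6 for 26 each, and Stmn4 is red in heterozygous replicate 6 and homozygous replicate 2. Of all probe sets, 50.4% to 64.5% lay below their wildtype mean in homozygous arrays, and 56.9% and 63.3% in heterozygous replicates 5 and 6.

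Other genes of the same pathways were taken as lists by function. None of their genes was called between homozygous and wildtype embryos, beside 0.564% of all probe sets. At that share lists of this length may hold none, so no contrast with the called genes is drawn. Of 14 measured kinases that act on microtubule-associated proteins, out of 17 listed, 12 had a lower mean, 7 were lower at an unadjusted p under 0.05 and the median difference was -0.17. Over all probe sets tested, 59.1% had a lower mean and 12.1% were lower at that p, and 72.3% of those with a mean signal of 5 or more had a lower mean. Mapk10, a Jun kinase of neurons, differed by -0.43 (limma adjusted p = 0.106), Gsk3b, which phosphorylates tau and collapsin response mediators, by -0.18, and Mark4, a kinase of tau and other microtubule-associated proteins, by -0.30. Of 27 measured actin and growth cone regulators (30 listed), 23 had a lower mean, 11 were lower at an unadjusted p under 0.05 and the median was -0.13. Wasf2, an activator of actin branching, differed by -0.27 (limma adjusted p = 0.0515), Shtn1, or shootin, by -0.44 and Enah, an actin elongation factor, by -0.17. Of 12 measured microtubule-binding, severing and dynein-linked proteins (22 listed), 10 had a lower mean and 4 were lower at an unadjusted p under 0.05, with a median of -0.09. Camsap3, which binds microtubule minus ends, differed by -0.30, Clasp2, which binds plus ends, by -0.22 and Spast, or spastin, which severs microtubules, by -0.29.

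The remaining lists lay nearer to all probe sets. Of 10 measured other tubulins and folding cofactors (14 listed), 6 had a lower mean, 1 was lower at an unadjusted p under 0.05 and the median was -0.07. Tuba4a, an alpha tubulin, differed by -0.44 (limma adjusted p = 0.158), Tubb4a by -0.21 and Tbcd by -0.10. Of 9 measured non-neuronal intermediate filaments and lamins (11 listed), 5 had a lower mean, 0 were lower at an unadjusted p under 0.05 and the median was -0.03. Vim, or vimentin, and Nes, or nestin, filament proteins of progenitors, differed by 0.06 and -0.12, and Des by 0.06.

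The list means of some cell type markers did not overlap between homozygous and wildtype arrays. The mean log2 signal of 9 measured Cajal-Retzius neuron markers ran from 2.95 to 3.21 in wildtype and from 2.74 to 2.80 in homozygous arrays, with 9 of 9 lower and 1 of them, Ebf3, called, beside 59.1% and 0.504% of all probe sets with a lower mean and called lower. For 11 basal progenitor markers the list mean ran from 5.66 to 5.93 in wildtype and from 5.49 to 5.64 in homozygous arrays. Heterozygous arrays ran from 5.26 to 5.78 and overlapped both. Of the 11 markers, 7 had a lower mean and 3 were called lower, beside the same shares of all probe sets. The called ones were Elavl4, an RNA-binding protein also made by young neurons, and the factors Nhlh1 and Neurod4. At an unadjusted p under 0.05, 6 of the 11 were lower and 2 higher, the latter being Dll3, a Notch pathway ligand (0.29), and Gadd45g (0.30). Neither of these 2 was called. The parts of these cell types in the differences of the cytoskeleton genes were not tested.

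Other lists overlapped between genotypes. Apical progenitor markers had list means of 6.19 to 6.39 in wildtype and 6.28 to 6.58 in homozygous arrays. Of these markers, 8 of 11 were higher, 3 lower and 0 called, beside 59.1% of all probe sets with a lower mean and 0.564% called. With limma, 3 were higher and 1, Lhx2 (-0.21), was lower at an unadjusted p under 0.05. With the apical list as a covariate Ina was at -0.58 (adjusted p = 0.0215), Map2 at -0.30 (adjusted p = 0.0996) and Nuak1 at -0.45 (adjusted p = 0.135). Ventral telencephalon and interneuron markers had list means of 1.55 to 2.16 in wildtype and 1.62 to 1.73 in homozygous arrays, and 6 of 10 had a mean under 2. With that list as a covariate Ina was at -0.53 (adjusted p = 0.00953), Map2 at -0.32 (adjusted p = 0.0449) and Nuak1 at -0.54 (adjusted p = 0.0724). Cortical hem and choroid plexus markers had list means of 3.48 to 4.35 in wildtype and 3.76 to 4.31 in homozygous arrays. Of 3 measured erythroid genes 0 had a lower mean and 0 were called, beside the same shares of all probe sets. Their list means were 4.72 to 5.16 in wildtype and 4.87 to 5.34 in homozygous arrays. Markers of meninges and of microglia were low, with 6 of 7 under a mean of 2 in each list, and 4 of 9 endothelial markers were. Of the hypoxia list, 0 genes were called, beside 0.564% of all probe sets. With the mean of that list as a covariate Ina was at -0.54 (adjusted p = 0.0154), Map2 at -0.32 (adjusted p = 0.0516) and Nuak1 at -0.42 (adjusted p = 0.0562).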

How the data were processed

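Total RNA of dorsal telencephalon was hybridised to 18 Affymetrix whole-transcript arrays, 1 per embryo. The authors deposited log2 signals for transcript-level probe sets, computed by RMA in Affymetrix Expression Console 1.1, per the submitters' processing notes (no RMA version is given). RMA corrects background, normalises by quantiles and summarises probes, so small shifts shared by most genes are reduced and differences near the floor are compressed. Every array reached 11.3 or more, above the 11.1 that natural logs of 16-bit readings could reach.

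Of 23238 probe sets, the 16661 with identifiers of 6700000 or above were tested, of which 14939 carry 1 gene symbol, 989 several and 733 none. limma 3.58.1 (R 4.3.3) was run on the 18 arrays together with 1 mean for each genotype (lmFit, eBayes, two-sided tests, Benjamini-Hochberg over all 16661, threshold 0.05), without a filter, covariate or block. The number of arrays, above all 4 homozygous ones, limits precision. The procedure was tested on simulated data.

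The genes, the lists and the tests were chosen with earlier results of these data known. The naming rule gave values in every embryo and full statistics to genes that passed, the 2 with the highest mean signal and the 2 with the highest upward difference. It let the 3 genes of each pathway list with the smallest unadjusted p be named. All genes of the list may be named with their levels. Values per embryo and adjusted p of other genes, near the threshold or, as for Gap43 and Dbn1, far from it, were added after they were seen. So were the values of Nuak2 and Stk11.

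Alternatives were a further quantile normalization, median centring, a trended robust prior, array weights, a filter that drops the dimmest 1 of every 3 probe sets, the whole table, 1 probe set per gene, replicate number as a block, a fit on only the groups compared, other thresholds, covariates (75th percentile, Eif2s3y, and the hypoxia, ventral and apical lists), leaving out homozygous replicate 2 with heterozygous replicate 6, and leaving out each array. Promoter windows come from RefSeq, build GRCm38.p6.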

Additional observations from a re-analysis of the deposited data

Results flagged for a closer look

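In 5 of the 93 sets of values examined (31 genes in 3 genotypes) the highest or lowest embryo lay further from the others than Dixon's 95% limit allows, and chance gives about 1 in 20 such sets. Nefm in homozygous replicate 4 was 2.35, above 2.09 to 2.11 in the other homozygous embryos. Gap43 in homozygous replicate 3 was 7.13, above 6.85 to 6.89. Tubb2b in heterozygous replicate 5 was 9.19, below 9.54 to 9.69 in the other heterozygous embryos. Tbcb in heterozygous replicate 6 was 6.13, below 6.58 to 6.83. Mapre2 in wildtype replicate 7 was 5.54, below 5.82 to 5.96 in the other wildtype embryos. The 5 values lie in 5 different arrays.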

How the results depend on the processing

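The number of genes called between homozygous and wildtype embryos (3 of 31) was 5 with 1 probe set per gene and with only the groups compared, 6 without the dimmest probe sets, and 1 with the whole table, the apical list or the hypoxia list as a covariate. At adjusted p under 0.01 it was 1 and at 0.1 it was 11, and leaving out 1 array gave 1 to 9. The called probe sets (94) became 173 with the 75th percentile as a covariate, 36 with the apical, 61 with the hypoxia and 61 with the ventral list, 142 after median centring, 158 after quantile normalization and 146 without the dimmest probe sets. They were 33 at adjusted p under 0.01, 383 at 0.1 and 36 to 394 on leaving out 1 array. Between homozygous and heterozygous embryos, 5 became 26 with the 75th percentile, 2 with the apical list, 3 with array weights, 13 after median centring, 21 after quantile normalization, 2 with only the groups compared, 9 at 0.1 and 1 to 31 on leaving out 1 array. The causes were not tested.

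Same-numbered arrays of different genotypes deviated together with correlations from -0.21 to 0.15 over 12 pairs, 4 of them above 0.1. The labels tie no litter to a number, so whether the numbers pair the embryos is unknown. A replicate block gave 12 called genes, a median difference of -0.26, 361 called probe sets between homozygous and wildtype and 1 between homozygous and heterozygous embryos. Map2 was not among the 12 (-0.31, limma adjusted p = 0.0619). Homozygous arrays exist for replicates 1 to 4 only. Wildtype replicates 7 and 8 were alone in their blocks and did not enter the differences. Against the wildtype mean of each gene, the median over the genes was -0.12 and -0.08 in those arrays. The part of their absence in the larger count was not tested.

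Uncalled genes near 0 changed sign. With the replicate block Map1b was 0.021, Dpysl4 -0.11, Pfn2 -0.054, Stmn3 -0.057, Stmn4 -0.017 and Tbcb -0.099. With the apical list Basp1 was 0.019, Dpysl4 -0.087, Pfn2 -0.14, Stmn3 -0.090, Stmn4 -0.22, Tbcb -0.025 and Tubb2a 0.032. With the hypoxia list Basp1 was 0.0042, Dpysl4 -0.024, Stmn4 -0.22 and Tubb2a 0.17, and with the ventral list Tubb2a was 0.012. With array weights Dpysl4 was -0.021 and Stmn4 -0.0061. With Eif2s3y Pfn2 was -0.016 and Tbcb -0.021, and with the 75th percentile Prph was 0.015, Stmn4 -0.014 and Tubb2a 0.068. Median centring gave Mapre3 0.036, Prph 0.015, Tubb2a 0.041 and Tubb2b 0.036, and quantile normalization gave Mapre3 0.052, Prph 0.0098 and Tubb2a 0.032. Without homozygous replicate 2 and heterozygous replicate 6, Dpysl4 was -0.073, Stmn4 -0.12 and Tubb2a 0.25. On leaving out 1 array, Dpysl4 ran from -0.073 to 0.070, Map1b from -0.20 to 0.050, Mapre3 from -0.12 to 0.044, Pfn2 from -0.041 to 0.090, Stmn4 from -0.12 to 0.22, Tbcb from -0.055 to 0.10, Tubb2a from -0.18 to 0.25 and Tubb2b from -0.10 to 0.024. Taking the mean of all probe sets of a gene changes nothing here, since each gene has 1. Nefh lay among the dimmest probe sets, where a difference is hard to measure.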
